A study of Mus musculus with 16 samples.

Results

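The comparison described here is hypoxia and reperfusion (H/R) without added vitamin B12 in BU.MPT cells, a mouse kidney proximal tubular cell line. It takes in the samples labelled H/R and control, 4 arrays each, which are 8 of the 16 arrays in the series, and all 22206 probe sets that are not control features. All cells were grown to near confluence at 39 °C without interferon gamma. The 4 control samples stayed at 21% oxygen in medium with 4.5 g/L glucose and 10% serum. The 4 H/R samples spent 3 h in about 1% oxygen in medium without glucose or serum, and then 1 h in normal culture with glucose and serum given back. Loss and return of oxygen, of glucose and of serum came together, so their effects cannot be told apart. The other 8 arrays repeat both conditions with 0.3 µM cyanocobalamin (B12). Each array was made from 700 pg of RNA from 1 cell line, and nothing in the labels ties replicates to separate cultures. The p-values therefore cover the spread among these arrays, which may be technical.

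Hypoxia-inducible factors, transcription factors that accumulate when oxygen falls, and stress pathways that sense amino acids, glucose and unfolded protein are the usual first responders in such cells. When oxygen and serum come back, growth factor and cytokine receptors are engaged again and their early target genes are transcribed within the hour. In the tubule, cytokine signals through Stat3, growth factors of the TGF-beta family, cell junctions and the primary cilium, a sensory antenna on the apical surface, are much studied after ischaemia. A gene's change below is the H/R mean minus the control mean on the log2 scale, with the standard error of the limma fit and n = 4 against 4. A gene is said to have risen or fallen where its p-value, adjusted over all 22206 probe sets, was below 0.05.

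The cell line carried part of the proximal tubule programme. Of 21 measured proximal tubule markers 15 had a control mean below 5.85, the lowest median of the negative control features on the 8 arrays. Among these were Lrp2 (3.34), Cubn (3.52), Slc34a1 (3.41), Hnf4a (2.68) and Slc22a6 (2.86), the defining endocytic receptors, transporters and nuclear factor of that segment. The water channel Aqp1 (14.21), the peptidase Mme (16.30) and the kidney transcription factors Pax2 (14.89) and Pax8 (15.91) were well above it. Aqp1 fell by 0.80 ± 0.16, Pax2 by 0.66 ± 0.14 and Mme by 0.52 ± 0.11 after H/R, and 0 of the 21 markers rose. Of the markers of other cells, 14 of 16 distal nephron genes, 10 of 11 fibroblast genes, 10 of 10 endothelial genes and 9 of 10 leukocyte genes were below the negative controls in control. Of 4 measured podocyte genes only Wt1 (2.94) was below them, with Synpo at 8.80, Podxl at 7.42 and Nphs1, nephrin, at 6.53 above, and none of the 4 passed the limma test or had an unadjusted p under 0.05. Of these 5 lists 2 distal genes fell, Tfap2b (-1.21 ± 0.14) from a control mean of 12.33 and Scnn1a (-1.15 ± 0.29) from 7.83. The endothelial gene Flt1 rose (0.96 ± 0.28), from a control mean of 4.23 to an H/R mean of 5.19, both below the negative controls. With B12 present its change was 0.30 and was not called. The fibroblast gene above the negative controls in control was Col1a1 (6.39), and the leukocyte gene was Csf1r (9.30). In bulk RNA, fewer cells of a type and less RNA per cell cannot be told apart.

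H/R moved 3919 probe sets (17.6% of those tested), 1801 of them higher (8.11%) and 2118 lower (9.54%). The lower side was more numerous, but the rises reached further. Between 2-fold and 4-fold there were 513 rises and 547 falls, between 4-fold and 8-fold 50 rises and 8 falls, and 16 rises and 0 falls were larger than 8-fold. The median fold was 1.75 for rises and 1.73 for falls, and 841 of the 3919 changes were smaller than 1.5-fold. The median change of all probe sets was -0.02. With each array centred on its own median, 3779 probe sets were called, 2133 higher and 1646 lower, so the share of rises among the calls went from 46.0% to 56.4% and the balance of directions turned. In 4642 probe sets (20.9%) the H/R arrays did not overlap with the control arrays, 2193 (9.88%) with every H/R array above and 2449 (11%) with every H/R array below. In 2981 probe sets the 95% interval of the change lay within 0.5 of zero.

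**Figure D1:**
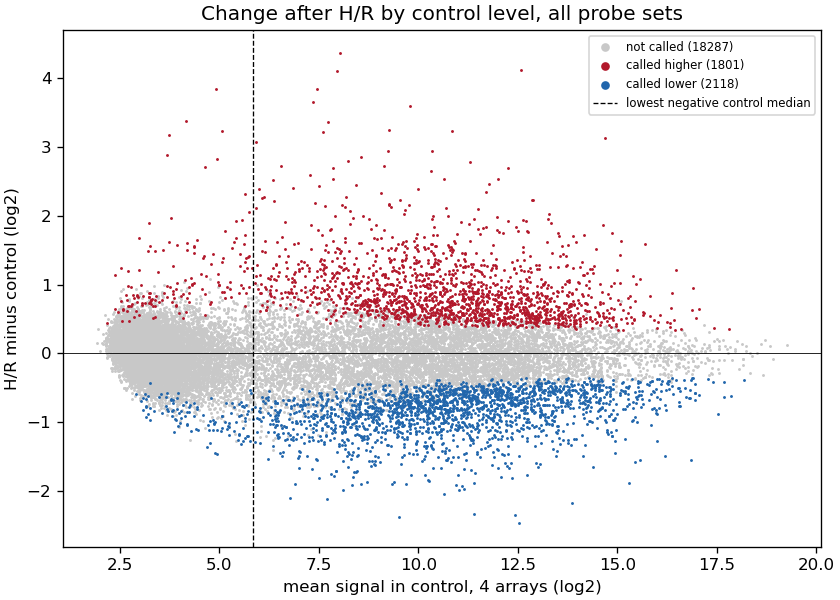
Each point is 1 of the 22206 probe sets, with its mean signal in the 4 control arrays on the horizontal axis (log2) and H/R minus control on the vertical axis (log2); red points were called higher (1801), blue points lower (2118), and the dashed line marks 5.85, the lowest negative control median. Rises reach above 4 while no fall passes -2.5, and both kinds of call are sparse left of the line.

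Calls were concentrated among genes the cells already expressed. With the probe sets split by control signal into 4 classes of equal size, 0.92% rose and 0.25% fell in the dimmest class, below 3.33. In the next class, up to 5.30, the shares were 1.37% and 1.24%. In the third, up to 10.28, they were 12.4% and 14.8%, and in the brightest class 17.8% and 21.8%. Of the 11595 probe sets with a control mean below the negative controls 265 (2.29%) were called, against 3654 of the 10611 others (34.4%). Falls outnumbered rises in both upper classes, and rises outnumbered falls in both lower ones, which lie wholly below the negative controls. In centred arrays the balance over all calls turned (2133 higher and 1646 lower), and the classes were not counted again there. The order in the dimmest class was less clear when the level was read from the control+B12 arrays, which this comparison does not use, with 38 rises and 31 falls in place of 51 and 14. Signal depends on the probes as well as on the transcript, so the classes rank probe sets and not transcript amounts.

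**Figure D2:**
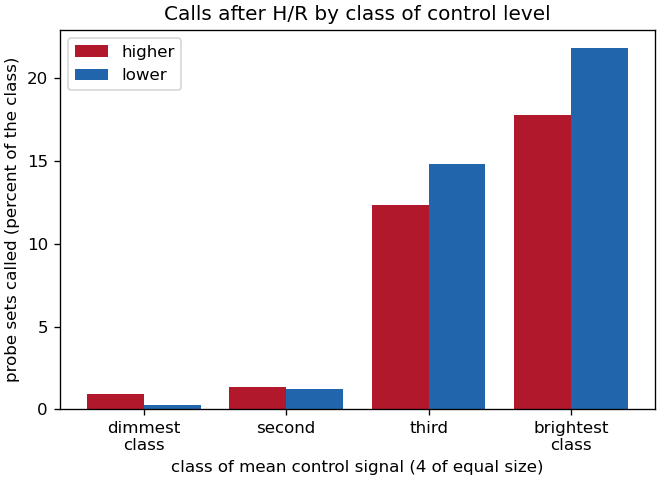
Bars give the percent of probe sets in each of 4 equal classes of mean control signal that rose (red) or fell (blue) after H/R. The brightest class holds 17.8% rises and 21.8% falls, the dimmest 0.92% and 0.25%.

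By kind of transcript, 3600 of 19171 probe sets of protein-coding genes were called (18.8%), 1637 higher and 1963 lower. Of 243 long noncoding RNAs 10 were called, 2 higher and 8 lower (0.82% and 3.29%). Of 983 predicted genes without a function name 20 were higher and 57 lower (2.03% and 5.80%). In both kinds both shares were below the 8.11% and 9.54% over all probe sets. Probe sets with no gene symbol had 293 of 2634 called (11.1%), against 17.6% over all.

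Behind the 10 largest rises stood genes of nitric oxide, transport, receptor signalling and transcription. Nos2, the inducible nitric oxide synthase, read 11.32, 10.97, 10.55 and 10.51 in the control arrays and 14.01, 13.91, 14.28 and 14.04 in the H/R arrays, a rise of 3.23 ± 0.18 or 9.35-fold. Creb5, a transcription factor of the cyclic AMP response family, read 8.08, 8.49, 8.33 and 8.05 and then 11.19, 11.12, 10.83 and 10.97 (2.79 ± 0.15). The receptor tyrosine kinase Epha2, which binds ephrins on neighbouring cells, read 9.60, 9.16, 8.82 and 9.39 in control and 11.99, 12.24, 12.29 and 12.17 after H/R (2.93 ± 0.18). In each of the 15 genes at ranks 11 to 25 of the rises all 4 H/R arrays lay above all 4 control arrays, and these genes were picked for the size of their change. The phosphatase Dusp5, which switches off ERK kinases, rose by 2.73 ± 0.25, and the ERK-linked growth factor gene Nrg1, neuregulin, by 2.53 ± 0.15 from 12.01 in control. Unc13a, known for priming vesicles for release in neurons, rose by 3.23 ± 0.29. The glutathione-degrading enzyme Chac1 rose by 3.06 ± 0.39, the neutral amino acid transporter Slc1a4 by 2.82 ± 0.34 and the transporter Slc16a6 by 3.16 ± 0.41. Cars, the cysteinyl-tRNA synthetase, rose by 2.64 ± 0.19 and Bnip3, a mitophagy receptor, by 2.23 ± 0.16. The bradykinin receptor Bdkrb2 rose by 2.88 ± 0.35, but its control mean of 3.68, like those of Unc13a (5.07), Slc16a6 (3.74) and Slc1a4 (4.93), lay below the negative controls, so the size of these rises is uncertain.

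The next largest falls were smaller and of mixed kind. Ndufb7, a subunit of respiratory complex I, read 10.60, 10.82, 11.38 and 10.93 in the control arrays and 9.05, 9.11, 8.99 and 8.97 after H/R, a fall of 3.74-fold. Gusb, the lysosomal beta-glucuronidase that is also used as a reference gene, read 11.97, 12.10, 12.17 and 12.07 and then 10.03, 10.03, 10.32 and 10.76 (-1.79 ± 0.16). Nuak2, a kinase related to AMPK, read 12.03, 12.58, 12.23 and 12.52 in control and 10.62, 10.55, 10.72 and 10.24 in H/R (-1.81 ± 0.17). The transmembrane protease Tmprss2 fell by 1.91 ± 0.26, the fucosyltransferase Fut10 by 1.90 ± 0.18 and the prolyl isomerase Fkbp14 of the endoplasmic reticulum by 1.80 ± 0.28. Ifit3b (-1.87 ± 0.17) and Ifit1bl1 (-1.86 ± 0.26) belong to a family of interferon-induced proteins with similar copies, between which probes may be shared. Among bright genes Pik3r3, a regulatory subunit of PI3-kinase, was at -1.76 ± 0.19, the homeobox factor Hoxc6 at -1.76 ± 0.23, the Raf kinase inhibitor Pebp1 at -1.67 ± 0.18, the chromatin protein Hmgn3 at -1.69 ± 0.17 and the mitochondrial dicarboxylate carrier Slc25a10 at -1.66 ± 0.20.

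Some genes crossed the level of the negative controls. Socs3, an inhibitor of cytokine receptors, read 6.32, 4.74, 5.75 and 5.80 in control and 7.49, 7.87, 8.49 and 7.99 after H/R. The cystine importer Slc7a11 went from a mean of 5.75 to 7.81, the scaffold Grasp from 5.14 to 6.92 and the polo-like kinase Plk3 from 5.63 to 7.35. In the other direction the pore-forming tight junction protein Cldn2, typical of the leaky proximal tubule, read 6.80, 6.95, 7.03 and 7.11 in control and 5.35, 5.42, 5.59 and 5.49 after H/R. Lin28b, which blocks processing of the let-7 microRNAs, went from 6.99 to 5.51, Rassf9 from 6.99 to 5.34 and the sulfotransferase Gal3st1 from 7.01 to 5.58. In these genes the arrays of both groups were separate, but the far side lies in background and the fold is a rough figure.

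Promoters of 4 genes that moved in opposite directions are given here because they hold both of the short motifs that differed most in share between rises and falls or, in Creb5, 1 of them. They were chosen after the values were seen. Each runs from 250 bases before to 50 bases after a start site in RefSeq (GRCm38.p6), 5′ to 3′ on the strand of the gene. Capitals mark ACGTG, the core that hypoxia-inducible factors bind, and CCAAT, the box bound by NF-Y, on either strand (CACGT and ATTGG on the other). CACGTG reads the same on both strands and counts at 2 adjacent positions. Clcn3 and Creb5 rose, and Wdr19 and Magt1 fell.
Clcn3 (chr8:60983262-60983561, minus strand): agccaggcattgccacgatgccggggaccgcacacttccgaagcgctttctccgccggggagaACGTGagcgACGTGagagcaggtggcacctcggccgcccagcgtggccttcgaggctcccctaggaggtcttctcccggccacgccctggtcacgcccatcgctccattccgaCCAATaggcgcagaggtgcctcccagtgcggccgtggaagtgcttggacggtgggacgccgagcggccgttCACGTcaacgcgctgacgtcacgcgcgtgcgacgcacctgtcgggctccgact
Creb5 (chr6:53287053-53287352, plus strand): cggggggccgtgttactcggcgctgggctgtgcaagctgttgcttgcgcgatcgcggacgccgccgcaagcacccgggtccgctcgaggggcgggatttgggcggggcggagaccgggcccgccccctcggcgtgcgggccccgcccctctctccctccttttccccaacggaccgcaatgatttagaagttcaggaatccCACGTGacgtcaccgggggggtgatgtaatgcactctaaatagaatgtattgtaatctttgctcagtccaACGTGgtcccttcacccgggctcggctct
Wdr19 (chr5:65199446-65199745, plus strand): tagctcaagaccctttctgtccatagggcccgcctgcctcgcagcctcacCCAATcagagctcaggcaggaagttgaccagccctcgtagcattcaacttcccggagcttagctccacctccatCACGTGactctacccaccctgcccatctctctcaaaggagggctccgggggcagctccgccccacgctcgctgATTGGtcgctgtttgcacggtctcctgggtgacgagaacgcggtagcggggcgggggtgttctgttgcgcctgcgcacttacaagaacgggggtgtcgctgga
Magt1 (chrX:106011753-106012052, minus strand): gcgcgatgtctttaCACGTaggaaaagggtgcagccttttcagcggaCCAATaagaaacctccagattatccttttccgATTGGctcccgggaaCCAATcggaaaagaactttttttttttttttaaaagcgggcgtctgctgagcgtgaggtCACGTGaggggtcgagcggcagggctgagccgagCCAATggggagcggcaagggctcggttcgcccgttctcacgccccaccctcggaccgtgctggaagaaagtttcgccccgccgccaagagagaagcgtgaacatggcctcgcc
In Clcn3 the ACGTG cores lie at -187, -178 and -3 from the start site and the CCAAT box at -74. Creb5 has cores at -49, -48 and 21, and no CCAAT box. In Wdr19 the adjacent cores are at -126 and -125 with boxes at -200 and -53, and Magt1 has cores at -236, -97 and -96 with boxes at -203, -171, -156 and -63. A cyclic AMP response element, TGACGTCA, starts at -45 in Creb5, where it overlaps a core, and at 10 in Clcn3.

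Over all 15691 tested genes with a promoter in the table, 21.4% held ACGTG. The share was 31.2% in 1325 genes that rose, 24.1% in 1657 that fell and 28.1% in 4164 genes of the brightest class. CCAAT was in 38.8% of all, 35.1% of rises, 45.6% of falls and 40.5% of the brightest class. The cyclic AMP element was in 2.42% of all, 4.60% of rises and 2.47% of falls, beside 3.53% of the brightest class. TATAAA was in 13.1% of all promoters but in 6.87% of rises and 6.64% of falls, close to the 6.63% of the brightest class. The median GC content was 57.0% over all, 63.7% in rises and 59.7% in falls. Motif shares move with GC content and with level, and the first start site listed stood for each gene, so these shares are a description of the windows and of no factor's activity.

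The gene lists below are given with the shares of their members that rose and that fell. These stand beside 8.11% and 9.54% over all probe sets, and beside 17.8% and 21.8% in the brightest class, where many list members lie.

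Genes of cytokine signalling through JAK kinases and Stat factors rose more widely than any other list of the 39 described here, by share of members. Lists and members were chosen with earlier results of these data known, and this rank may owe to that choice. Among all probe sets with a control mean at or above the negative controls 15.5% rose. Of 39 measured members 16 rose and 1 fell (41% and 2.56%), against 8.11% and 9.54% over all probe sets, with a median change of 0.43. Stat3, the transcription factor activated by the receptors that share Il6st, read 11.67, 11.72, 11.65 and 11.75 in the control arrays and 13.52, 13.22, 13.71 and 13.65 in the H/R arrays, a rise of 1.83 ± 0.15 (adjusted p = 4.69e-07). The control arrays lay close together, and every H/R array was far above them. Pim2, a survival kinase and Stat target, read 11.81, 11.13, 10.84 and 11.40 and then 14.06, 14.04, 14.23 and 13.93 (2.77 ± 0.19), and Pim1 rose by 1.18 ± 0.17. All 16 members that rose had every H/R array above every control array. Over all probe sets, called or not, 9.88% did. The 16 were called on these same arrays, so their separation is no further support for the list.

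Of 13 receptors 7 rose. Osmr, the oncostatin M receptor, rose by 1.34 ± 0.15 and its partner Il6st by 0.59 ± 0.14. The interferon gamma receptor Ifngr1 went from a mean of 10.24 to 11.77 (1.53 ± 0.15), and its partner Ifngr2 rose by 0.75 ± 0.16. Both chains of the type I interferon receptor rose, Ifnar2 by 1.02 ± 0.11 from an already bright 15.07 and Ifnar1 by 0.81 ± 0.14, and the interleukin 10 receptor chain Il10rb rose by 0.62 ± 0.14. Among the kinases Jak1 rose by 0.93 ± 0.15, while Tyk2 was the member that fell (-0.68 ± 0.21), with overlapping arrays and no call when control 2, 3 or 4 or H/R 1, 2 or 3 was left out. Of 14 inhibitors 4 rose, with Socs3 at 2.31 ± 0.32, Socs2 at 1.52 ± 0.19, the phosphatase Ptpn2 at 0.91 ± 0.15 and Pias1 at 0.55 ± 0.17. Lif, a cytokine that signals through Il6st, read 10.65, 10.58, 10.49 and 10.86 in control and 12.87, 13.09, 13.34 and 13.40 after H/R.

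The TGF-beta, activin and BMP list had 16 of 53 members higher and 0 lower (30.2% and 0%), against 8.11% and 9.54% over all probe sets, with a median change of 0.29. Of the 53 members 19 were below the negative controls in control, 18 of them in both groups. The ligand Tgfb2 read 9.45, 9.23, 9.32 and 9.26 in control and 11.50, 11.38, 11.48 and 11.40 after H/R, a 4.36-fold rise, and the 4 arrays of each group were tightly grouped. Tgfb1, by contrast, was at 0.16 ± 0.15 and did not pass. Of 19 ligands and binding proteins 2 rose, and the other was Fst, follistatin, which traps activin (1.38 ± 0.22). In control 10 of these 19 were below the negative controls. Among the receptors Tgfbr1 rose by 1.00 ± 0.13, Tgfbr2 by 0.82 ± 0.20, Bmpr2 by 0.51 ± 0.13 and the coreceptor Tgfbr3 by 0.42 ± 0.13, 4 of 12 in all.

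Of 6 Smad factors 4 rose, the TGF-beta effectors Smad3 (0.87 ± 0.15) and Smad2 (0.72 ± 0.13), the BMP effector Smad1 (1.02 ± 0.16) and the shared partner Smad4 (0.62 ± 0.12). The inhibitory Smads did not pass, with Smad7 at 0.44 ± 0.28 and Smad6 at -0.43 ± 0.23. Tgif1, a corepressor of Smads, read 10.45, 10.95, 10.98 and 10.62 and then 12.71, 12.64, 12.79 and 12.86 (2.00 ± 0.16). Skil (0.81 ± 0.17), Ski (0.59 ± 0.19) and the ubiquitin ligase Smurf1 (0.66 ± 0.13) rose as well, which makes 4 of 11 inhibitors and corepressors. Id1, an early BMP target that blocks differentiation factors, read 12.45, 11.51, 11.59 and 11.25 in control and 13.97, 13.89, 14.12 and 14.18 after H/R, with control 1 the highest of its group and still below every H/R array. Its relative Id2 rose by 0.63 ± 0.16. Without control 1 the list had 15 members higher, and the direction of the list was the same in centred arrays (18 higher, 0 lower). Without H/R 4 there was 1 member lower.

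In the Notch pathway, which neighbouring cells use to set each other's fate, 7 of 36 members rose and 5 fell (19.4% and 13.9%). Rbpj, the DNA-binding factor of the pathway, read 12.92, 12.68, 12.60 and 12.32 in control and 14.56, 14.29, 14.82 and 14.60 after H/R (1.94 ± 0.16). The receptor Notch1 rose by 1.95 ± 0.25 and the ligand Jag1 by 0.56 ± 0.14. The coactivators Maml2 (-1.30 ± 0.19) and Maml3 (-1.09 ± 0.21) and the factor Hes6 (-1.19 ± 0.21) fell. The count of falls was 3 in centred arrays and without control 3, H/R 1 or H/R 2. In the Wnt pathway 2 of 56 members rose and 8 fell (3.57% and 14.3%), and 29 of the 56 were below the negative controls in control. Tcf7l2, the main DNA-binding partner of beta-catenin in epithelium, read 14.95, 15.23, 15.25 and 15.36 and then 14.13, 13.92, 13.84 and 13.93 (-1.24 ± 0.12). The receptors Fzd2 (-0.69 ± 0.16) and Fzd7 (-0.68 ± 0.18) and the ligase Znrf3, which removes such receptors (-0.83 ± 0.17), fell too. Against these the ligand Wnt7b rose by 1.73 ± 0.15, from 9.97 to 11.70. The falls were 5 in centred and in quantile-normalized arrays, 5 without control 1 or H/R 2 and 4 without control 2. The rises were 1 without control 4, H/R 1 or H/R 4.

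Genes of the primary cilium fell more widely than any other list of the 39 by share of members. Lists and members were chosen with earlier results of these data known, and this rank may owe to that choice. Among all probe sets with a control mean at or above the negative controls 18.9% fell. Of 50 measured members 21 fell (42.0%, against 9.54% over all probe sets) and 1 rose, with a median change of -0.43 and a control level below the negative controls in 5. The mean over the list was 9.42, 9.33, 9.41 and 9.31 in the control arrays and 8.95, 8.92, 8.90 and 8.93 in the H/R arrays. No H/R array reached the lowest control array. Of the 21 genes that fell 20 had every H/R array below every control array, the exception being Tmem216. Over all probe sets, called or not, 11% had their arrays apart in this way. The 21 were called on these same arrays, so this separation is no further support for the list. Ift20, which carries membrane cargo from the Golgi to the cilium, read 15.46, 15.28, 15.49 and 15.56 in control and 13.99, 13.79, 13.81 and 13.92 after H/R, a fall of 2.97-fold (adjusted p = 4.04e-07).

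The falls were spread over the machines of the cilium. In the outward transport train, IFT-B, 5 of 12 members fell, with Ift80 at -1.39 ± 0.19, Ift27 at -1.09 ± 0.23, Ift22 at -1.03 ± 0.17 and Ift74 at -0.50 ± 0.16 beside Ift20. In the return train, IFT-A, 3 of 6 fell. Wdr19, whose promoter is printed above, read 12.59, 12.65, 12.55 and 12.71 and then 11.55, 11.24, 11.68 and 11.65, and Ift140 (-1.26 ± 0.22) and Ift122 (-0.87 ± 0.19) belong to the same complex. The transition zone, the gate at the base, had 7 of 13 members lower, led by Cc2d2a (-1.55 ± 0.21), Tctn2 (-1.04 ± 0.15) and Rpgrip1l (-0.97 ± 0.23). Of 9 genes of the BBSome, the coat that sorts ciliary receptors, and of its assembly 3 fell, Bbs10 (-0.86 ± 0.20), Ttc8 (-0.65 ± 0.17) and Bbs9 (-0.64 ± 0.17). Members that did not pass included Ift88 (-0.55 ± 0.28), Ift57 (0.25 ± 0.16) and Cep290 (-0.01 ± 0.21). Of 6 Hedgehog genes, whose signal is read in the cilium, Smo (-0.77 ± 0.22) and Sufu (-0.60 ± 0.14) fell and the receptor and target Ptch1 rose (1.14 ± 0.19). With centred arrays 19 members were lower, and 17 without control 1.

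**Figure D3:**
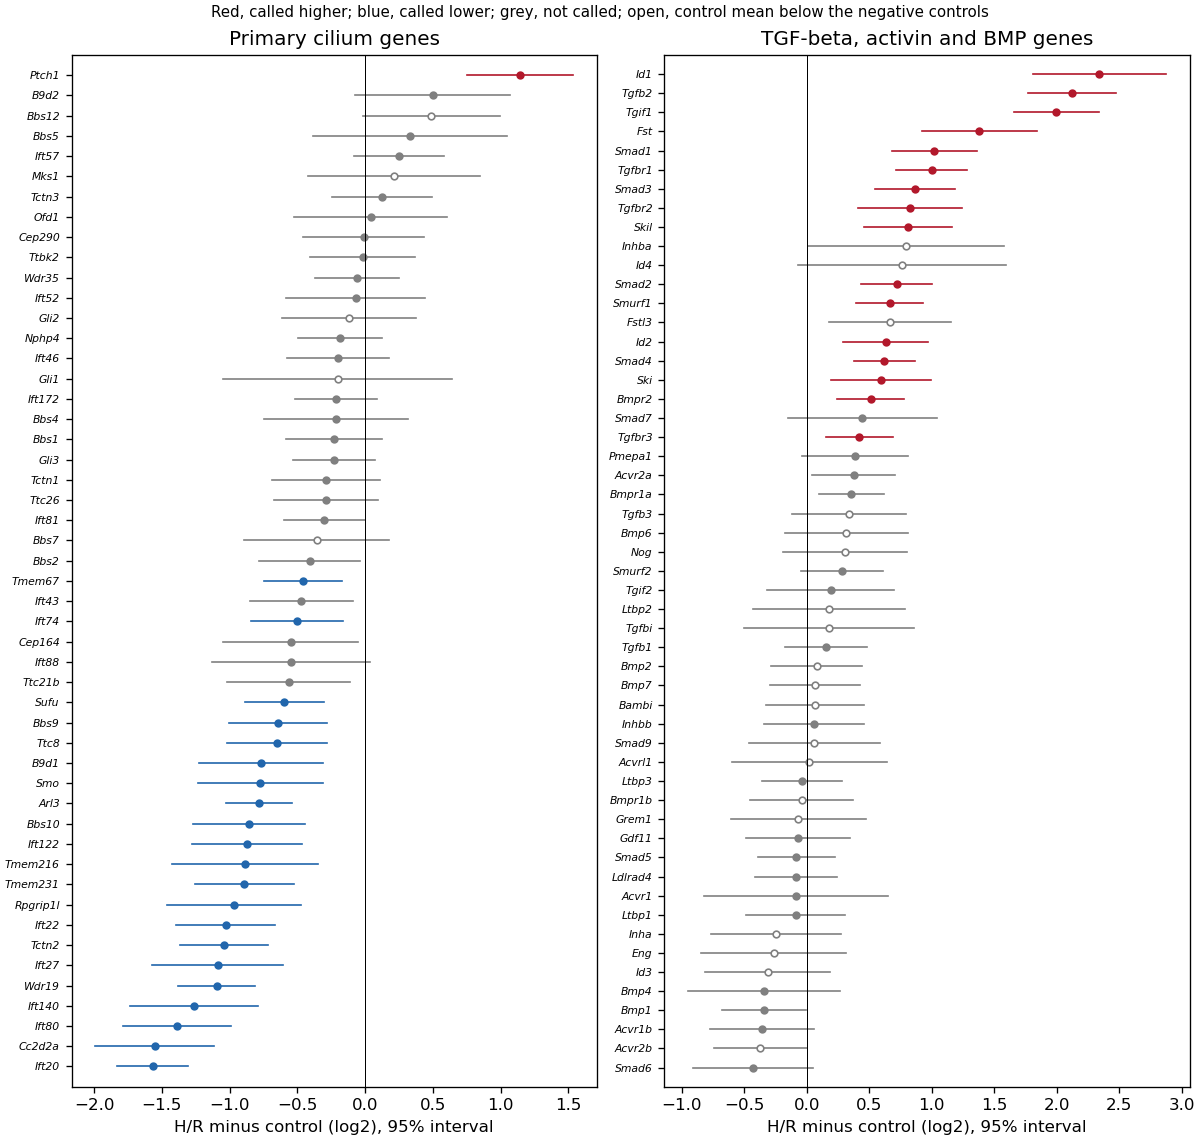
H/R minus control (log2) with 95% intervals for the 50 measured primary cilium genes (left) and the 53 measured TGF-beta, activin and BMP genes (right), red where called higher, blue where called lower, grey where not called and open where the control mean lay below the negative controls. In the cilium list 21 genes lie on the blue side and only Ptch1 is red, while in the other list 16 genes are red and none is blue.

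N-glycosylation, the attachment of sugar chains to proteins entering the secretory route, had its falls most often, by share of members, at its central enzyme. Of 51 measured members 2 rose and 14 fell (3.92% and 27.5%), with a median change of -0.25. Of 11 genes of the oligosaccharyltransferase, which moves the finished sugar chain onto the protein, 7 fell. Its small subunit Ost4 read 16.94, 16.98, 16.78 and 16.69 in control and 15.17, 15.20, 15.30 and 15.53 after H/R (-1.55 ± 0.12), and Ostc (-1.05 ± 0.15), Magt1 (-0.91 ± 0.14), Ddost (-0.78 ± 0.13), Rpn1 (-0.65 ± 0.13), Dad1 (-0.64 ± 0.15) and Rpn2 (-0.56 ± 0.13) fell with it. All 7 were in the brightest class of control signal. In the 22 genes that build the chain on its lipid carrier 5 fell, among them Alg6 (-1.26 ± 0.30), Dpm3 (-1.01 ± 0.24) and Dpagt1 (-0.84 ± 0.25), the enzyme of the first step. Of 10 Golgi processing genes B4galt1, a galactosyltransferase, rose by 1.15 ± 0.14 and Man1a by 0.84 ± 0.18, while Fut8, which adds the core fucose, fell by 0.97 ± 0.21. With quantile-normalized or centred arrays 13 members were lower.

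In vesicle transport the shares were close to those over all probe sets in 2 of 3 lists. In the COPI, COPII and Golgi list 7 of 59 rose and 7 fell (11.9% and 11.9%). Of the 59 members 41 were in the brightest class, where the shares were higher, 17.8% and 21.8%. The coat subunit Copz1 was at -1.02 ± 0.13, the small GTPase Arf5 at -0.82 ± 0.16 and the retrieval receptors Kdelr1 and Kdelr2 at -0.69 ± 0.19 and -0.44 ± 0.13, while the cargo adaptor Sec24b was at 0.85 ± 0.16 and Tfg, which organises exit sites, at 0.76 ± 0.13. The rises were 4 without control 1, and the falls were 4 in centred arrays and without control 3 and 3 without H/R 1. Of 52 Rab GTPases 7 rose and 6 fell (13.5% and 11.5%), with Rab5a of early endosomes at 0.68 ± 0.14, Rab11a of recycling endosomes at -0.59 ± 0.13 and Rab29 at -1.21 ± 0.21, and 4 rose without control 1 or H/R 1. Of 54 genes of endosomal sorting 8 rose and 11 fell (14.8% and 20.4%), and 38 of the 54 were in the brightest class. Within the ESCRT-I complex subunits went both ways, Vps37b at 1.45 ± 0.24 and Vps37c at 0.98 ± 0.15 against Vps28 at -0.86 ± 0.15 and Mvb12a at -0.97 ± 0.15. The small adaptor subunits Ap1s1 (-1.04 ± 0.15) and Ap2s1 (-0.89 ± 0.16) fell. The falls in this list were 6 in centred arrays and without H/R 1, and 7 without control 2, H/R 2 or H/R 3.

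Rises outnumbered falls among genes of cell junctions. Of 54 tight and adherens junction genes 11 rose and 2 fell (20.4% and 3.70%), with a median change of 0.23. Of 33 desmosome and keratin genes 7 rose and 0 fell (21.2% and 0%), but their median change was 0.04 and 20 of the 33 were below the negative controls in both groups. Cldn4, a sealing claudin of the distal nephron, read 8.60, 7.94, 7.57 and 7.28 in control and 10.47, 10.27, 10.41 and 10.38 after H/R, a rise of 2.53 ± 0.22 against the fall of Cldn2. The claudins Cldn1 (1.01 ± 0.12) and Cldn12 (0.95 ± 0.14), the scaffold Tjp1 (0.82 ± 0.14) and the catenin Ctnnd1 (0.73 ± 0.17) rose, and the polarity gene Pard3 fell (-0.54 ± 0.12). In the desmosome the linker Pkp2 read 8.94, 8.97, 9.08 and 8.72 and then 10.97, 10.87, 10.66 and 10.68 (1.87 ± 0.14), Ppl rose by 1.88 ± 0.21 and the cadherin Dsg2 by 1.22 ± 0.30. Krt18 (0.82 ± 0.22, with overlapping arrays), Vim (0.65 ± 0.14) and Lmna (0.67 ± 0.15) are filament genes that rose. The keratin Krt19 rose by 2.70 ± 0.34 from a control mean of 4.63, below the negative controls. Its value is not among the changes of the desmosome and keratin list, the highest of which was that of Ppl. Without control 2 there was 1 member of that list lower. Cldn4 and the keratins are also markers of distal and injured tubule, and the distal nephron list itself had 0 of 16 members higher and 14 below the negative controls.

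**Figure D4:**
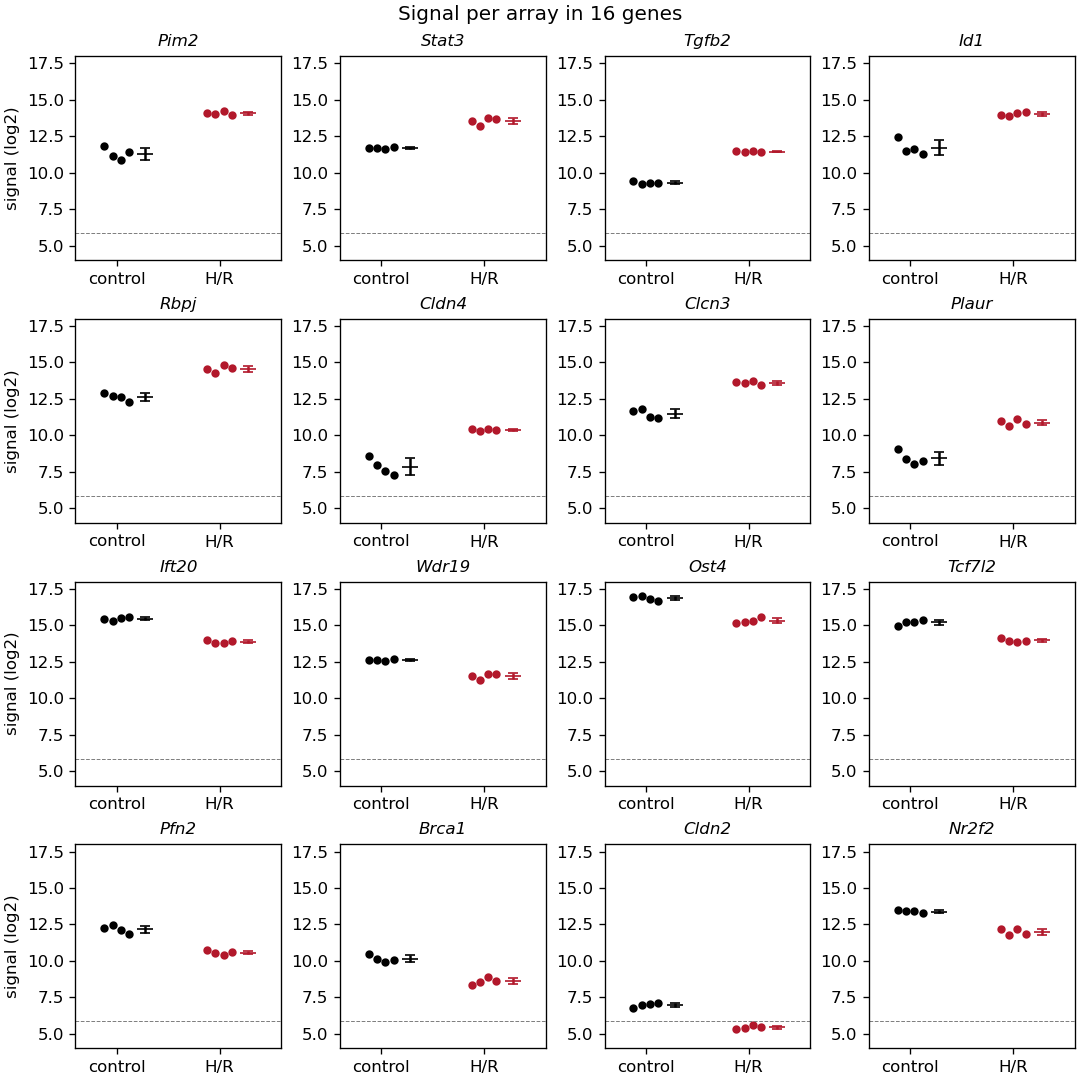
Log2 signal on each of the 4 control arrays (black) and 4 H/R arrays (red) in 16 genes, with mean and SD beside the points and the lowest negative control median, 5.85, as a dashed line. In all 16 genes the groups do not overlap; Cldn2 alone crosses the dashed line.

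Of 59 genes of the actin cytoskeleton and focal adhesions 13 rose and 8 fell (22% and 13.6%), and 49 of the 59 were in the brightest class, where 17.8% of probe sets rose and 21.8% fell. Rises included genes of adhesion sites, with Vcl, vinculin, at 1.29 ± 0.17, Zyx, zyxin, at 1.15 ± 0.15, Lims1 at 1.20 ± 0.13, Pxn at 1.01 ± 0.14 and the integrin activator Fermt2 at 0.93 ± 0.16. Falls included factors of the actin monomer and of branching. Pfn2, a profilin that feeds actin monomers to filaments, read 12.24, 12.43, 12.15 and 11.85 in control and 10.72, 10.57, 10.43 and 10.58 after H/R (-1.59 ± 0.15), and Pfn1 (-0.60 ± 0.13) and the Arp2/3 subunits Arpc5 (-0.79 ± 0.17), Arpc1a (-0.77 ± 0.14), Arpc4 (-0.52 ± 0.14) and Arpc1b (-0.40 ± 0.11) fell, while Actr3 of the same complex rose (0.64 ± 0.12).

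In the microtubule list 5 of 49 rose and 11 fell (10.2% and 22.4%). Of the 49 members 32 were in the brightest class, where 17.8% of probe sets rose and 21.8% fell. Tubd1, delta-tubulin, was at -1.71 ± 0.15, Tubg1, the gamma-tubulin that seeds microtubules, at -1.29 ± 0.21 and the dynein light chains Dynlt1b and Dynll1 at -1.0 ± 0.18 and -0.67 ± 0.12, while the dynein light intermediate chain Dync1li1 rose by 0.99 ± 0.13. Without H/R 3 there were 3 rises.

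Of 60 matrix and integrin genes 6 rose and 5 fell (10% and 8.33%), close to the shares over all probe sets. Itga2, a collagen-binding integrin, rose by 1.27 ± 0.15 and Itga3, a laminin-binding one, by 0.65 ± 0.12, while Sparc, a secreted matrix regulator, fell by 0.97 ± 0.14. Without H/R 3 the falls were 3. Among 48 matrix protease and coagulation genes 4 rose and 5 fell (8.33% and 10.4%), also close to them. Plaur, the urokinase receptor, read 9.08, 8.40, 8.05 and 8.22 in control and 10.96, 10.67, 11.10 and 10.79 after H/R (2.44 ± 0.24), and its ligand Plau fell (-0.83 ± 0.21). Adamts1 and Adamts5, which cut proteoglycans, rose by 1.27 ± 0.12 and 1.16 ± 0.12, and Adamts9 (-1.24 ± 0.22) and the protease inhibitor Timp2 (-0.72 ± 0.11) fell.

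Nutrient sensing through mTORC1 and AMPK was among the lists with most calls, 15 rises and 10 falls in 50 members (30% and 20%). Among the rises were brakes on mTORC1. Eif4ebp1, which holds back translation until mTORC1 phosphorylates it, read 11.77, 11.45, 11.77 and 11.53 in control and 13.32, 13.54, 13.65 and 13.32 after H/R (1.83 ± 0.15). Ddit4, a hypoxia-induced inhibitor, rose by 1.72 ± 0.19, the stress sensor Sesn2 by 1.30 ± 0.32 and Tsc1 of the inhibitory TSC complex by 1.11 ± 0.14. The AMPK subunits Prkab2 (0.98 ± 0.16), Prkab1 (0.91 ± 0.16) and Prkaa1 (0.46 ± 0.12) and the folliculin partners Fnip1 (0.80 ± 0.15) and Fnip2 (0.62 ± 0.13) rose. Falls included genes of amino acid sensing at the lysosome. Castor2, of the arginine sensor family, read 10.21, 10.62, 10.49 and 10.66 and then 8.98, 8.94, 8.72 and 9.34 (-1.50 ± 0.14). The Ragulator subunits Lamtor4 (-1.23 ± 0.18) and Lamtor5 (-0.97 ± 0.13), the GTPase Rragb (-1.07 ± 0.15) and Depdc5 (-1.03 ± 0.22) and Nprl2 (-0.67 ± 0.22) of GATOR1, itself an inhibitor, fell, and Rragc rose (0.61 ± 0.14). Ulk1, the kinase that starts autophagy, was at -0.93 ± 0.22, and the sestrins differed, with Sesn3 at 0.71 ± 0.15 and Sesn1 at -1.01 ± 0.17.

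Lipid synthesis had members on both sides. Of 53 fatty acid and triglyceride genes 9 rose and 8 fell (17% and 15.1%). Dgat2, which makes triglyceride, rose by 1.53 ± 0.22 from a control mean of 5.32 below the negative controls, Gpat3 by 1.18 ± 0.19 and the glucose-sensing factor Mlxip by 1.04 ± 0.14. Elongation and desaturation enzymes such as Hacd3 (-1.02 ± 0.14), Fads2 (-0.49 ± 0.15), Tecr (-0.55 ± 0.13) and Elovl1 (-0.56 ± 0.14) fell, while Elovl5 (0.60 ± 0.12) and Scd1 (0.46 ± 0.13) rose. Of 56 sphingolipid and phospholipid genes 8 rose and 13 fell (14.3% and 23.2%). The sphingomyelin synthase Sgms2 read 10.10, 10.54, 10.53 and 10.36 and then 12.12, 12.54, 12.02 and 12.19 (1.83 ± 0.18), and the phosphatases of sphingosine phosphate went opposite ways, Sgpp1 at 1.22 ± 0.17 and Sgpp2 at -1.07 ± 0.18. Kdsr of the early ceramide route (-1.05 ± 0.15), the acyltransferases Agpat1 (-0.88 ± 0.12) and Agpat3 (-0.79 ± 0.12) and the phosphatidylserine synthases Ptdss1 (-0.53 ± 0.16) and Ptdss2 (-0.61 ± 0.13) fell.

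Mitochondrial genes outside the respiratory chain also moved both ways. In the TCA list 3 of 35 rose and 7 fell (8.57% and 20%). Of these 35 members 23 were in the brightest class, where 17.8% of probe sets rose and 21.8% fell. Got2 (-0.64 ± 0.11), Suclg1 (-0.61 ± 0.13), Mdh2 (-0.41 ± 0.12) and Fh1 (-0.51 ± 0.13) were lower and the malic enzyme Me2 (0.88 ± 0.15) was higher. The pyruvate dehydrogenase kinases were apart, Pdk1 at 0.76 ± 0.19 and Pdk2 at -0.95 ± 0.19. In the list of mitochondrial dynamics and quality control 12 of 51 rose and 11 fell (23.5% and 21.6%). Rises included chaperones and proteases of the matrix and inner membrane, with Hspa9 at 1.07 ± 0.15, Lonp1 at 0.80 ± 0.15 and Afg3l2 at 0.46 ± 0.15, along with the fusion gene Mfn2 (0.52 ± 0.15, with overlapping arrays) and the coactivator Pprc1 (1.13 ± 0.33). Falls included genes that shape the cristae, with Micos13 at -1.36 ± 0.18, Apool at -1.20 ± 0.13, Chchd6 at -0.80 ± 0.20 and Micos10 at -0.76 ± 0.11, along with the fission adaptor Fis1 (-0.61 ± 0.16) and the protease Oma1 (-1.25 ± 0.28). In peroxisome assembly 1 of 35 rose and 2 fell (2.86% and 5.71%), below the 8.11% and 9.54% over all probe sets. These were Pex5 (0.71 ± 0.21), Pxmp4 (-1.0 ± 0.26) and Hsd17b4 (-0.73 ± 0.13). Pex5 was not called without control 3, control 4 or H/R 3 (adjusted p = 0.0532, 0.0745 and 0.067), nor Pxmp4 without H/R 2 (0.0532). The list had 2 rises without control 1 or control 2 and in centred arrays.

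In the machinery of transcription by polymerase II rises outnumbered falls. Of 49 measured genes 15 rose and 5 fell (30.6% and 10.2%). Of 9 elongation factors 6 rose, with Ell2 reading 9.81, 9.97, 9.77 and 10.21 in control and 11.19, 11.24, 10.73 and 10.89 after H/R (1.07 ± 0.20), Ell at 0.99 ± 0.20, Ccnt1, the cyclin of P-TEFb, at 0.57 ± 0.17 and Supt5 at 0.63 ± 0.17. Of 29 Mediator subunits, which link activators to the polymerase, 9 rose and 3 fell, among them Med26 (1.17 ± 0.26), Med10 (0.94 ± 0.18) and Med13l (0.88 ± 0.16) on the upper and Med30 (-0.73 ± 0.15) on the lower side. Of 11 polymerase II subunits 0 rose and 2 fell, the small subunits Polr2f (-0.68 ± 0.13) and Polr2l (-0.76 ± 0.20). In the RNA polymerase III list, which serves tRNA genes, 5 of 26 rose and 1 fell (19.2% and 3.85%), with Polr3g at 1.18 ± 0.29, Polr3d at 0.93 ± 0.17, Bdp1 at 0.67 ± 0.14 and Polr3k, the fall, at -0.87 ± 0.19. The rises there were 10 in centred and 8 in quantile-normalized arrays, and falls were 2 without control 4 and in quantile-normalized arrays.

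After transcription, 7 of 40 nuclear pore and transport genes rose and 2 fell (17.5% and 5.00%), with Seh1l (1.02 ± 0.15), Nup50 (0.86 ± 0.13) and Nup54 (0.81 ± 0.13) leading. The 2 falls were lost (0 lower) in centred arrays and without control 3, H/R 3 or H/R 4, and 1 was left without each other array and in quantile-normalized arrays. Of 44 mRNA decay genes 8 rose and 4 fell (18.2% and 9.09%). The rises included adaptors that bring deadenylases to messages, Tob2 (1.17 ± 0.21), Tob1 (0.95 ± 0.12) and Btg1 (0.68 ± 0.12), the endonuclease Zc3h12a (0.83 ± 0.25) and the AU-element binder Zfp36 (1.44 ± 0.30), and the falls included the deadenylases Cnot6 (-0.81 ± 0.15) and Cnot8 (-0.50 ± 0.14) and the exosome subunits Exosc5 (-1.27 ± 0.23) and Exosc9 (-0.70 ± 0.12). Splicing genes were divided, 8 of 50 higher and 9 lower (16% and 18%), and 44 of the 50 were in the brightest class. Rises included Sf3b1 (0.61 ± 0.12), Sf3a2 (0.55 ± 0.17) and Sf3a1 (0.48 ± 0.15) of the SF3 complex, and the regulators Srsf1 (-0.80 ± 0.12), Tra2a (-0.74 ± 0.13) and Srsf10 (-0.43 ± 0.12) fell. The splicing kinases differed, Clk1 at -0.68 ± 0.19 against Clk2 at 0.82 ± 0.23 and Clk3 at 0.71 ± 0.16. The rises were 3 without H/R 3, 4 without control 2 or 4 and 5 without control 3, H/R 1 or H/R 2 or in quantile-normalized arrays, and the falls were 5 in centred arrays and without control 1.

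Among DNA repair genes falls outnumbered rises. Of 57 members 3 rose and 15 fell (5.26% and 26.3%), with a median change of -0.41. Of 18 genes of homologous recombination and the Fanconi pathway 7 fell. Brca1 read 10.48, 10.10, 9.90 and 10.09 in control and 8.38, 8.55, 8.92 and 8.62 after H/R (-1.52 ± 0.18), and Rad51c (-1.22 ± 0.23), Fancb (-1.0 ± 0.21) and Brca2 (-0.59 ± 0.17) fell too. The rise in that class was Rad52 (1.48 ± 0.38), from a control mean of 3.21 in background. Of 14 genes of end joining and break signalling 4 fell, with Prkdc at -0.97 ± 0.17, Atm at -0.82 ± 0.19, Xrcc5 at -0.63 ± 0.15 and Rad50 at -0.54 ± 0.13, while Nbn rose (0.70 ± 0.17). In base excision repair the glycosylases Neil1 (-1.26 ± 0.29) and Neil3 (-0.72 ± 0.23) fell and the nuclease Apex1 rose (0.64 ± 0.17). The mean over the list was 9.16, 9.02, 9.12 and 8.96 in the control arrays and 8.70, 8.79, 8.74 and 8.67 in the H/R arrays. Without control 1 there were 13 falls, and with B12 present 10 of the 57 fell and 1 rose, with a median of -0.18.

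The shares among chromatin genes differed little from those over all probe sets, 8.11% higher and 9.54% lower, except in the histones, where they were lower. Of 44 acetylation and Polycomb genes 5 rose and 4 fell (11.4% and 9.09%), with the acetyltransferases Kat7 (1.08 ± 0.16) and Kat5 (0.98 ± 0.13) and the Polycomb gene Pcgf5 (1.33 ± 0.19) higher and the deacetylases Hdac11 (-1.34 ± 0.19), Hdac8 (-1.09 ± 0.17) and Hdac3 (-0.71 ± 0.13) lower. Of 37 remodelling genes 3 rose and 5 fell (8.11% and 13.5%), with Chd1 at 0.73 ± 0.12 and Ruvbl2 at 0.78 ± 0.18 against Smarcc2 at -0.71 ± 0.13 and Ss18 at -0.56 ± 0.13, and 3 fell without control 4. Of 57 canonical histone genes, whose copies are alike, 1 rose and 3 fell (1.75% and 5.26%), and the rise of H2ac15 (0.49 ± 0.15) was not called without control 2 or 4 or H/R 3 or 4 (adjusted p = 0.076 to 0.11). Without control 1 there were 2 histone genes higher. Of 358 zinc finger genes grouped by the Zfp name, which takes in the AU-element binder Zfp36, 27 rose and 43 fell (7.54% and 12%). Zfp521 (-1.34 ± 0.17) and Zfp948 (1.33 ± 0.18) were the largest on either side after Zfp36, and the falls were 28 in centred arrays, 27 in quantile-normalized arrays, 25 without control 4 and 26 without H/R 4.

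Ion handling showed 9 rises and 7 falls in 52 genes (17.3% and 13.5%). Clcn3, a chloride and proton exchanger of endosomes, read 11.66, 11.84, 11.27 and 11.22 in control and 13.66, 13.57, 13.73 and 13.42 after H/R (2.10 ± 0.17). The calcium entry channel Orai1 rose by 1.17 ± 0.20 and its relative Orai3 fell by 0.89 ± 0.24, and Atp2b1, a calcium pump, rose by 0.86 ± 0.15. The potassium channel Kcnj16 of the tubule read 14.72, 14.88, 14.97 and 14.93 and then 13.81, 13.65, 13.63 and 13.64 (-1.19 ± 0.13), and the osmotic channel Trpv4 (-1.03 ± 0.13) and Trpm7 (-0.79 ± 0.15) fell. The falls were 4 in centred arrays and without control 2 or H/R 1 and 3 without control 4. Zinc genes had 4 rises and 4 falls in 29 (13.8% and 13.8%), with the transporters Slc30a4 at 1.17 ± 0.15, Slc39a10 at 0.76 ± 0.17 and Slc39a11 at -1.45 ± 0.34, and 2 rises without H/R 4. The H/R arrays of Slc39a11 lay below the negative controls, 1 at 3.76 and the others at 5.46 to 5.53, so the size of its fall is uncertain. Of 24 selenoprotein genes 2 rose and 3 fell (8.33% and 12.5%), with Selenom (-1.42 ± 0.21), Msrb1 (-0.93 ± 0.16) and Selenof (-0.70 ± 0.12) lower and Txnrd3 (1.00 ± 0.25) and Selenok (0.44 ± 0.12) higher, and 4 rose without control 4.

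Among 42 nuclear receptors and coregulators 7 rose and 3 fell (16.7% and 7.14%). All 3 retinoic acid receptors rose, Rara by 1.71 ± 0.15, Rarb by 1.34 ± 0.23 and Rarg by 1.33 ± 0.25, while their partner Rxra fell by 1.08 ± 0.18. Rara read 10.60, 10.33, 10.51 and 10.07 in control and 12.07, 11.90, 12.15 and 12.23 after H/R. Rora (1.61 ± 0.15) and Nr1d2 (1.35 ± 0.21), which act in the circadian clock, and the glucocorticoid receptor Nr3c1 (0.73 ± 0.21) rose. Nr2f2 read 13.46, 13.39, 13.41 and 13.28 and then 12.15, 11.81, 12.20 and 11.82 (-1.39 ± 0.15), and the bile acid receptor Nr1h4 was at -1.10 ± 0.29. In the cyclic nucleotide and G-protein list 7 of 55 rose and 6 fell (12.7% and 10.9%), with Prkaca, the catalytic subunit of protein kinase A, at -1.25 ± 0.13 and its regulatory subunit Prkar2b at -0.80 ± 0.13. The rises there were 4 without control 1. Of 86 cullin ligase genes 15 rose and 8 fell (17.4% and 9.30%), with Vhl, which marks hypoxia-inducible factors for decay, at 0.65 ± 0.16, its partner Elob at -0.94 ± 0.12, the iron-sensing Fbxl5 at 1.01 ± 0.11 and the common adaptor Skp1 at -0.66 ± 0.12. The falls were 5 in centred arrays and without control 1, 3 or 4 or H/R 1 or 3.

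**Figure D5:**
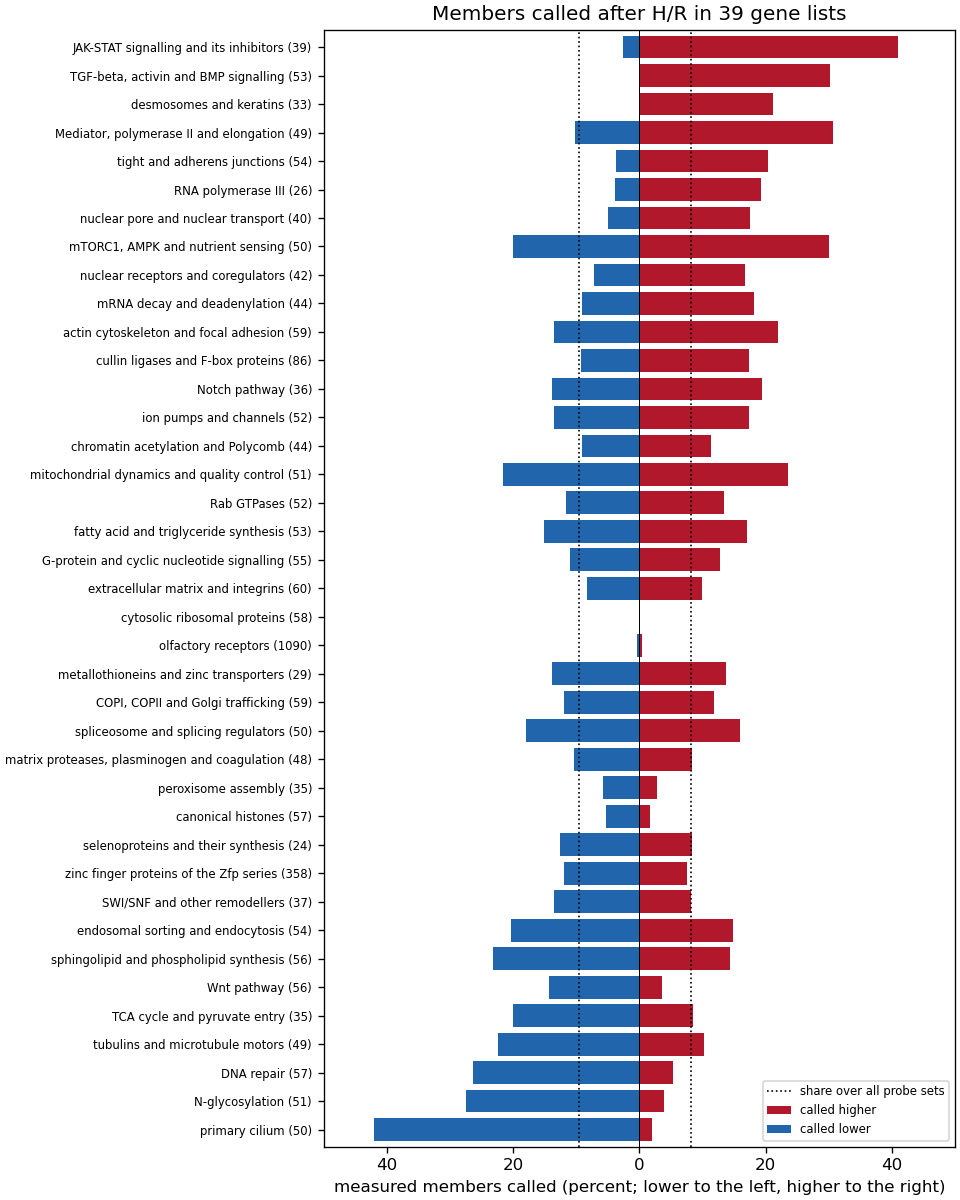
Percent of measured members called lower (blue, to the left) and higher (red, to the right) in each of 39 gene lists, with the number measured in brackets; dotted lines give the shares over all 22206 probe sets, 9.54% lower and 8.11% higher. The JAK-STAT list reaches 41.0% higher and the primary cilium list 42.0% lower, and cytosolic ribosomal proteins have no bar.

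Cytosolic ribosomal protein genes were flat. Of 58 measured genes 0 rose and 0 fell by limma, and at an unadjusted p under 0.05 the count was 2. Their median change was 0.03, and the 95% interval lay within 0.5 of zero in 49 of the 58. All 58 were in the brightest class of control signal, where 39.6% of probe sets were called. Rpl22l1, the member with the smallest p, read 11.05, 10.58, 10.90 and 10.22 in control and 10.90, 11.31, 11.34 and 11.16 after H/R, and its arrays overlapped. At the other end, 1088 of 1090 olfactory receptor genes, which kidney cells hardly express, had a control mean below the negative controls, and 4 rose and 4 fell (0.367% and 0.367%). The rises became 11 in centred arrays and without H/R 3, and the falls 8 without control 4 and 2 in centred arrays. The call of Olfr152 was lost without control 2 or 3 (adjusted p = 0.0523 and 0.052) and that of Olfr70 without control 2 or H/R 4 (0.0583 and 0.0745).

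The same treatment was also applied with B12 present, on 8 arrays that the comparison above does not use, though all 16 share the variance estimate of the fit. There 4142 probe sets were called (18.7%), 2007 higher (9.04%) and 2135 lower (9.61%). Of the 3919 probe sets called without B12, 3836 (97.9%) changed in the same direction with it and 2940 were called the same way, 75.0% of these 3919 and 71.0% of the 4142. By direction, 1455 of 1801 rises and 1485 of 2118 falls were called again, and 3 probe sets were called the opposite way. The change with B12 was 1.86 in Stat3, 2.21 in Tgfb2, 1.88 in Rbpj, -1.46 in Ift20, -1.10 in Wdr19, -1.43 in Ost4 and 3.55 in Nos2. By list, the cilium had 22 falls and 1 rise with B12, JAK-STAT signalling 17 rises and 2 falls, TGF-beta signalling 18 rises and 1 fall and N-glycosylation 14 falls and 4 rises. Some changes were not called with B12, as in Lin28b (-1.48 ± 0.32 without and -0.43 with B12) and Exosc9 (-0.70 ± 0.12 and 0.04). The test of the difference between both responses called 0 of 22206 probe sets by limma, these 2 genes included. At an unadjusted p under 0.05 there were 1071 of the 22206, where chance alone gives a share of about 0.05. No gene's response was shown to differ with B12.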

How the data were processed

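RNA of 16 samples was measured on Affymetrix arrays, and the 8 of H/R and control are compared here. Per the submitters' processing notes, the authors used the Transcriptome Analysis Console, RMA and Affymetrix Expression Console, with tool versions not given in the sources used. The deposited values are log2 signals per probe set, already normalized across arrays. Of 28846 features 6640 control features were left out of testing. Across probe sets, pairs of arrays from 1 group had r of 0.991 to 0.994, and pairs of an H/R and a control array 0.985 to 0.988. The number of arrays limits the precision. Array medians lay between 5.31 and 5.36 in control and between 5.24 and 5.29 in H/R, so every H/R median was below every control median.

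All 16 arrays in 4 groups were fitted with limma 3.58.1 in R 4.3.3 (two-sided, Benjamini-Hochberg over 22206 probe sets, threshold 0.05, total degrees of freedom 16.2). Intervals are 95%. Gene symbols came from the platform annotation and were checked against RefSeq (GRCm38.p6), and 19572 probe sets have 1 symbol and 2634 none. The script was tested on simulated data. The lists were written from general knowledge, and members and lists were chosen with earlier results of these data known. They are described by counts beside the share over all probe sets, with no set test. Named genes are ranks 11 to 25 in each direction, the 8 largest among bright genes, up to 6 that crossed the negative controls and up to 4 of smallest p per list. Further list members and the marker genes are named by role and were chosen after their values were seen. Control features and the B12 contrast against H/R were not described, and 1 of the lists of processes is not reported here. Plots were made with matplotlib 3.10.9 under Python 3.11.15.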

Additional observations from a re-analysis of the deposited data

Results flagged for a closer look

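In 532 sets of 4 arrays, the control or H/R values of 227 named genes and of the means of 39 lists, 25 had 1 array far from the other 3, by Dixon's criterion. Chance gives about 1 in 20 such sets. Among list means, the array that stood apart was at 15.4860 for cytosolic ribosomal proteins in H/R, and among the control arrays at 11.0118 for Mediator, polymerase II and elongation, 6.8933 for matrix proteases, 11.2187 for the TCA cycle, 10.8187 for mitochondrial dynamics and 9.7146 for selenoproteins. In control, the array apart from the others was at 8.8815 for Bcl3, 15.2782 for Ifnar2, 9.9869 for Ifngr1, 11.3169 for Itga2, 13.8947 for Itga3, 9.9669 for Micos13, 11.1191 for Slc7a5, 7.0223 for Tlr1 and 7.8766 for Vps37b. In H/R it was at 6.6662 for Abtb2, 14.2721 for Elob, 11.9530 for Hsd17b4, 13.8111 for Kcnj16, 4.0036 for Olfr70, 8.7159 for Polr3k, 14.4318 for Sf3b1, 3.7645 for Slc39a11, 7.5167 for Slc7a11 and 10.9854 for Tob1. Slc39a11, a zinc transporter, had its other H/R arrays no lower than 5.4623, and all 4 were below the negative controls. The Slc7a5 array was above the other control arrays, the nearest of which was at 10.1591, and lay on the side of the H/R arrays.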

How the results depend on the processing

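The count of 3919 calls was within 1.5 times of itself in the fit of both groups alone (3357), with an intensity trend (4517), with array weights (4079), without the dimmest 25% of probe sets (4297), after quantile normalization (3823), after centring (3779) and with 1 probe set per gene (3915). At an adjusted p under 0.01 it was 2438 (1173 higher, 1265 lower), and with a 2-fold change and an unadjusted p under 0.05 it was 1156 (581 higher, 575 lower). These are stricter rules. With each array left out in turn, calls ran from 3315 to 3571, rises from 1522 to 1689, falls from 1764 to 1882 and flat probe sets from 2161 to 2325. With the baseline level from the control+B12 arrays, falls in the dimmest class were 31 in place of 14. Replicate numbers were not found to pair the arrays, since same-numbered control and H/R arrays deviated together with r of 0.0087, -0.015, 0.073 and 0.052. With a replicate block 3673 probe sets were called (1695 higher, 1978 lower), 3559 of them shared with the fit without the block. The block moved 4 list counts by over 1.5 times, with splicing rises at 4 in place of 8, ion channel falls at 4 in place of 7, nuclear pore falls at 1 in place of 2 and olfactory receptor falls at 7 in place of 4. All 227 named genes kept their direction wherever they were fitted. The 2-fold rule lost 67 of them, the 0.01 threshold 6, the fit of both groups alone 1 and each left-out array 0 to 3, while 2 were not tested without the dimmest probe sets. Signal near the negative controls limits the size of changes in dim genes.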
